A study of Mus musculus with 11 samples.

Results

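Activity-induced genes of neurons were followed in single cortical nuclei of mice whose microglia differed in NF-kB signalling. The set held 10 of the 31053 genes of the count tables, taken by their symbols: the AP-1 subunits Fos, Fosb and Junb, the zinc finger factors Egr1 and Egr3, the factor Npas4, the orphan nuclear receptors Nr4a1 and Nr4a3, and the effectors Arc and Bdnf. All 10 symbols were found once, and their levels were read as raw UMIs (molecular tags, each standing for 1 captured RNA molecule) summed per mouse over a type of nucleus. Nuclei came from frozen cortex of 11 mice labelled female, 1 library for each, in 4 genotype groups. The methods of the study name male mice for RNA-seq, but in these libraries Xist, the RNA of the inactive X chromosome, was at 793 to 1491 CPM (UMIs of a gene scaled to a common total) and the Y-linked Uty at 0.837 to 1.38. Non-transgenic mice were Ikbkb+/+ (n = 4, 9.8 to 10.85 months). P301S mice were Ikbkb+/+ and carried the PS19 transgene, human tau bearing P301S, a mutation of inherited frontotemporal dementia, under the prion promoter (n = 3, 9.15 to 10.75 months). Knockout P301S mice had the same transgene and Ikbkb-/-, the loss of the NF-kB kinase IKKb (n = 2, 8.39 and 9.15 months). Active IKKb P301S mice had the transgene and the IkbkbCA allele, which makes a constitutively active kinase (n = 2, 10.85 and 9.8 months). Both alleles were switched in cells that express Cx3cr1, which in the brain are mainly microglia, by a tamoxifen-induced Cre, so neither allele was aimed at the neurons read here. Mice of all 4 groups received tamoxifen, and mice without Cre carried the unrecombined floxed alleles. The floxed Ikbkb line gave 6 mice and the active IKKb line 5. The first were non-transgenic replicates 1 and 2, P301S replicates 1 and 2 and both knockout P301S mice. The second were non-transgenic replicates 3 and 4, P301S replicate 3 and both active IKKb P301S mice.

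Neuronal firing opens synaptic and voltage-gated calcium channels, and calcium-dependent kinases then act on factors such as CREB, SRF and MEF2 that already sit on DNA. Within minutes these factors switch on rapid primary response genes, which need no new protein and which include most of the genes followed here. Their products, among them AP-1 dimers of a Fos and a Jun protein, then drive a later set of effector genes. The transcripts are short-lived, so their level is widely read as a record of recent activity.

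The upstream bases of 4 of the genes, Fos, Junb, Nr4a1 and Nr4a3, are shown, because promoters of this class are known for CREB sites. They are the RefSeq reference sequence of GRCm38.p6, written from 5′ to 3′ on the strand of the gene and ending before the first annotated exon. Capitals mark matches to TGACG, the core of the cyclic AMP response element, on either strand (CGTCA on the other), and, in Fos, a match to the NF-kB consensus. The bases are chr12:85473640-85473889 for Fos on the plus strand, chr8:84978749-84978998 for Junb on the minus strand, chr15:101266596-101266845 for Nr4a1 on the plus strand and chr4:48045055-48045152 for Nr4a3 on the plus strand. For Nr4a3 only 98 bases are given, since the rest of its window lay in an annotated exon.
Fos: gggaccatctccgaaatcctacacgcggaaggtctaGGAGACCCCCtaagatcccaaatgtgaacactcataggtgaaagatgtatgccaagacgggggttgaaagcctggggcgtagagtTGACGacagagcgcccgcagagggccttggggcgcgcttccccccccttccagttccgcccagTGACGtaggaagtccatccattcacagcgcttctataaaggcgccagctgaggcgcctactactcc
Junb: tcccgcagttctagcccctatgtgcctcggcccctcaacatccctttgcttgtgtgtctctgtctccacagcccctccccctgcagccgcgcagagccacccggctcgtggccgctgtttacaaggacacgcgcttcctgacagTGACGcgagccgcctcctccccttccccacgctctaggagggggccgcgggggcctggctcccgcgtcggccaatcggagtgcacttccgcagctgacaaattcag
Nr4a1: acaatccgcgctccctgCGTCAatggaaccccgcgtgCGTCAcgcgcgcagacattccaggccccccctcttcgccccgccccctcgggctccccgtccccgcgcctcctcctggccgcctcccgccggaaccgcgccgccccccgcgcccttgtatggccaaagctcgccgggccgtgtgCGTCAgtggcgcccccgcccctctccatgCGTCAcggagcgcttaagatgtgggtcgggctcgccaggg
Nr4a3: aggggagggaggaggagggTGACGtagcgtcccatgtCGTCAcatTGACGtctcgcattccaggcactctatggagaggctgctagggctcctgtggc

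Of the 10 genes, 7 had a RefSeq promoter window, and each of the 7 held at least 1 match to TGACG in the 250 bases before a start site. The 7 genes had 13 windows in all, and a gene was counted if any of its windows matched. The shares of promoters below are per window, so they are not on the same footing as counts of genes. Nr4a1 and Nr4a3 held 4 matches each, Fos and Npas4 held 2, and Fosb and Junb held 1. Bdnf, with several promoters, held a match in 1 of its windows. Among the 32851 promoters of the same length in the table, 17.8% held this core. The full element TGACGTCA was in 1.55% of promoters and in 0 of the 7 genes, and the SRF CArG box in 1.47% and 0. An AP-1 site, TGANTCA, was in 6.75% of promoters and in Bdnf alone, and an NF-kB site was in 7.25% of promoters and in Fos, Fosb, Npas4 and Bdnf. In Fos the NF-kB match ran from base -214 to -205 before the start site and the cores from -129 to -125 and from -66 to -62. In Npas4 the cores lay at -179 to -175 and -169 to -165 and the NF-kB match at -143 to -134, all within an annotated first exon. These are letters in the reference and say nothing of binding in these nuclei.

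In the GENCODE M21 annotation of GRCm38, Fos lies at chr12:85473890-85477273, Fosb at chr7:19302696-19310051, Junb at chr8:84974484-84978718, Egr3 at chr14:70077203-70082614, Arc at chr15:74669083-74672570, Npas4 at chr19:4984355-4990316, Nr4a1 at chr15:101254269-101274795, Nr4a3 at chr4:48045153-48086447 and Bdnf at chr2:109674700-109727007. Egr1 lies on chromosome 18. The Nr4a1 window printed above lies inside the span of its gene, upstream of a start site that longer transcripts pass over as an intron. The counts were made at the 3′ end of transcripts and include unspliced RNA, so they sum over the promoters of a gene.

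The libraries held 72007219 to 93205362 UMIs and 7500 to 12315 barcodes, and any pair of libraries shared 13 to 38 barcodes. After filters and removal of doublets, 103065 nuclei remained. Of these, 38501 were excitatory neuron-like and 23917 inhibitory neuron-like by their markers, and 13 neuronal subtypes had at least 20 nuclei in every mouse. The 10 genes and the other activity-induced genes were kept out of the genes used for clustering. Although the tissue was labelled cortex, 7921 nuclei had the markers of striatal projection neurons, and they were found in every library. They made up 59.6% of the inhibitory neuron-like nuclei of active IKKb P301S replicate 1, 15.5% in active IKKb P301S replicate 2 and 23.4% to 37.4% in the other 9 mice. Median UMIs per excitatory neuron-like nucleus were 12611 and 14566.5 in the knockout P301S mice, the highest of the 11. They were 9016 to 9859 in the P301S mice, the lowest of the 11. Non-transgenic mice had 10095 to 11575.5 and active IKKb P301S mice 11371.5 and 11566. The P301S mice are a side of every comparison below, and the part of depth in them was not tested. Ikbkb itself, in microglia-like nuclei, was at 110 and 113 CPM in knockout P301S mice, at 135 to 155 in P301S mice, at 124 to 157 in non-transgenic mice and at 163 and 148 in active IKKb P301S mice. The knockout mice were the lowest of the 11, on a 3′ count that may lie outside the deleted part and then checks nothing.

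All 10 genes were read in both neuron classes, and they are set beside the level in oligodendrocyte-like nuclei, whose droplets also hold free RNA of other cells. Oligodendrocyte-like nuclei had medians of 1846 to 2875 UMIs per mouse, against 7251 to 10910.5 in inhibitory neuron-like nuclei. Free RNA can thus be a larger part of their CPM. A neuronal level at or under theirs does not tell expression from free RNA. The medians below are over the 11 mice, in CPM of the summed nuclei, with TMM scaling between mice within each type of nucleus. Bdnf, a neurotrophin released by active excitatory neurons, was at 35.7 CPM in excitatory neuron-like nuclei, 5.17 in inhibitory and 6.73 in oligodendrocyte-like nuclei. Its excitatory level was 6.90 times the inhibitory level at the median and was higher in 11 of 11 mice, while the inhibitory level was 0.769 of that in oligodendrocyte-like nuclei. Bdnf was at 4.18 CPM in oligodendrocyte precursor-like, 8.35 in astrocyte-like and 10.3 in microglia-like nuclei, so the glial types differed among themselves and held the inhibitory level within their range.

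The nuclear receptors were also higher in the excitatory class. Nr4a1 was at 78.7 CPM in excitatory and 33.2 in inhibitory neuron-like nuclei, 2.37 times as high, and Nr4a3 was at 24.5 and 15.03 CPM, 1.63 times as high, both in 11 of 11 mice. Arc, which binds the postsynaptic density and removes AMPA receptors, was at 18.1 CPM in excitatory, 10.1 in inhibitory and 12.1 in oligodendrocyte-like nuclei. In the other glial types it was at 2.88 CPM (astrocyte-like), 3.39 (oligodendrocyte precursor-like) and 8.21 (microglia-like), and the inhibitory level joined subtypes far apart, as given below. Junb went the other way, at 10.9 CPM in excitatory and 19.3 in inhibitory nuclei, and was higher in the excitatory class in 2 of 11 mice. Among inhibitory subtypes Junb was at 45.1 CPM in Drd1 nuclei and at 4.03 (Pvalb), 5.25 (Lamp5), 6.02 (Sst), 10.7 (Drd2) and 10.8 (Vip) in the others, so that Drd1 nuclei alone were above the excitatory median. Fos (4.79 and 5.20 CPM), Fosb (3.12 and 2.57), Egr1 (31.98 and 32.9), Egr3 (14.2 and 10.5) and Npas4 (15.99 and 14.3) had nearby medians in the 2 classes. Over oligodendrocyte-like nuclei the excitatory level was 1.88-fold for Fos, 1.98-fold for Junb, 2.28-fold for Npas4, 2.56-fold for Egr1, 3.30-fold for Egr3, 4.79-fold for Fosb and 5.31-fold for Bdnf. Other glial types gave smaller margins for some genes: Fos was at 5.03 CPM in astrocyte-like nuclei, above its excitatory median, and in microglia-like nuclei Junb was at 20.6 CPM, above both neuron classes, and Egr1 at 23.2.

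Within the classes the genes had their own subtypes, and the order of subtypes differed from gene to gene. Bdnf was highest in claustrum or layer 6 Car3 excitatory-like nuclei, with a median of 100.3 CPM (49.1 to 168 over mice), followed by upper-layer excitatory-like nuclei at 54.6 (34.2 to 67.0). The first exceeded the second in 11 of 11 mice, by 0.86 ± 0.37 on the log2 scale (mean and SD over mice, with 1 CPM added). Layer 5 extratelencephalic (28.8) and layer 4 and 5 nuclei (26.5) followed and did not differ beyond their spread over mice. Layer 6 corticothalamic nuclei came next at 9.62 CPM, below layer 4 and 5 in 11 of 11 mice. Drd1 (1.96) and Drd2 (1.82) striatal projection neuron-like nuclei were at the end of the order, under the level in oligodendrocyte-like nuclei. Striatal projection neurons are known to receive BDNF from cortical axons and to make little of their own transcript.

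Drd1 striatal projection neuron-like nuclei led in Junb, Egr1, Egr3, Npas4 and Fosb. Their median Junb was 45.1 CPM, against 13.8 in the next subtype, layer 6 corticothalamic, and was higher in 11 of 11 mice, by 1.42 ± 0.67 (log2, mean and SD). In Drd2 nuclei, which carry the other dopamine receptor and sit in the same tissue and libraries, Junb was at 10.7 CPM. Egr1 was at 71.9 CPM in Drd1 and 22.9 in Drd2 nuclei, Egr3 at 32.3 and 12.7, and Arc at 26.8 and 7.73, each higher in Drd1 nuclei in 11 of 11 mice. Fos (5.996 and 2.26 CPM) and Npas4 (21.6 and 16.6) were higher in Drd1 nuclei in 10 of 11 mice. Fosb, Nr4a1 and Nr4a3 were higher in Drd1 nuclei in 6 or 7 mice and Bdnf in 3. At the top of the order, the lead of Drd1 nuclei over the next subtype was within the spread over mice for Egr1, Egr3, Npas4 and Fosb.

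Vip interneuron-like nuclei, which inhibit other interneurons, were the highest in Fos, at 13.1 CPM (0 to 22.9 over mice, from 73 UMIs in all). They exceeded layer 6 corticothalamic nuclei, at 7.59 CPM, in 10 of 11 mice, by 0.97 ± 0.77 (log2, mean and SD). Pvalb interneuron-like nuclei, the fast-spiking class, were at 1.28 CPM for Fos, 6.39 for Egr1 and 21.3 for Nr4a1, where Vip nuclei were at 51.9 and 69.1 for the last 2 genes, higher in 11 of 11 mice for both. Arc was low in all 4 interneuron subtypes, at 2.44 to 3.40 CPM, near its level in astrocyte-like nuclei (2.88), and was highest in layer 6 corticothalamic (29.9), Drd1 (26.8) and layer 4 and 5 nuclei (24.6), whose order lay within the spread over mice.

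Near-projecting excitatory-like nuclei had high Nr4a3 and little of the AP-1 genes. Nr4a3 was at 53.8 CPM there (43.9 to 91.4), close to claustrum or layer 6 Car3 nuclei at 42.8, and 3.46 ± 0.80 log2 units above Sst interneuron-like nuclei at 5.81. Fos was at 1.20 CPM in these nuclei, below layer 4 and 5 nuclei in 10 of 11 mice, and Fosb had 0 UMIs in 902 nuclei, which allows a share of nuclei with a UMI of up to 0.333%. Nr4a1 was broad among excitatory subtypes, from 102.8 CPM in layer 5 extratelencephalic nuclei to 61.7 in upper-layer nuclei. Its lead in layer 5 over Pvalb nuclei was 2.42 ± 0.28 log2 units and was seen in 11 of 11 mice. Subtypes come from the same 11 libraries, and the lower ones rest on few UMIs.

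**Figure D1:**
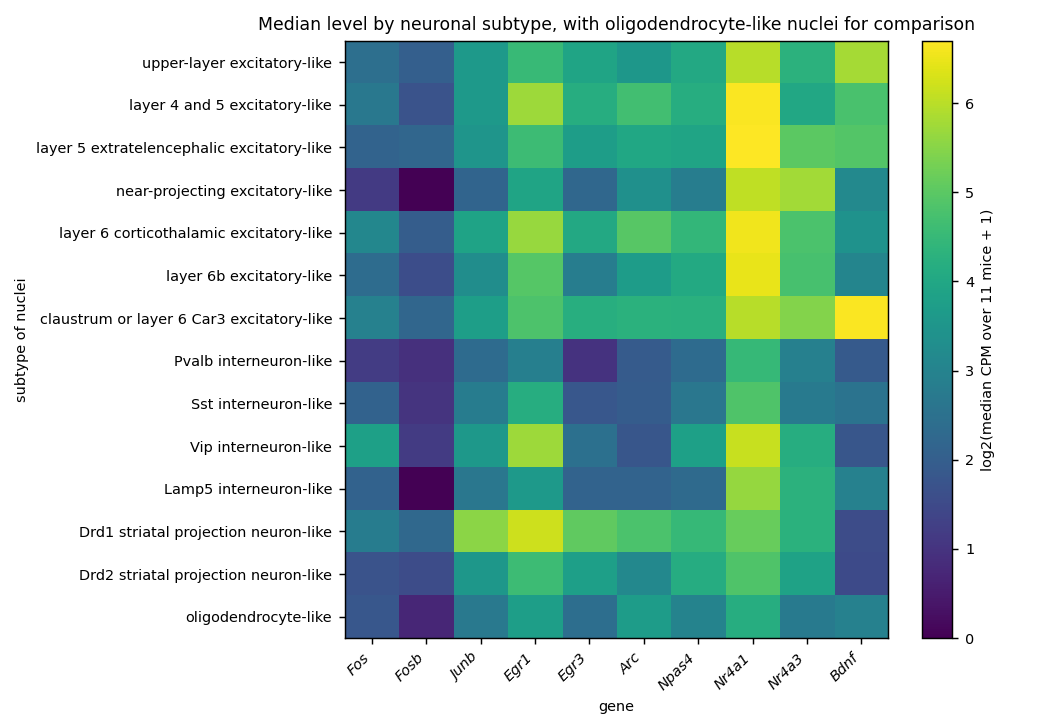
Each square is the median level of a gene over the 11 mice in a neuronal subtype, as log2(CPM + 1), with oligodendrocyte-like nuclei in the last row for comparison. Bdnf peaks in the row of claustrum or layer 6 Car3 nuclei (100.3 CPM), Junb in the row of Drd1 nuclei (45.1 CPM), and the interneuron rows are pale for Arc (2.44 to 3.40 CPM).

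The share of nuclei with at least 1 UMI was compared after thinning each nucleus to 3000 UMIs, which left out 449 excitatory, 1000 inhibitory and 14431 oligodendrocyte-like nuclei with fewer. Only the 3892 deepest oligodendrocyte-like nuclei stayed, 76 of them in P301S replicate 1. Nr4a1 was found in a median of 20.8% of excitatory, 8.95% of inhibitory and 3.89% of oligodendrocyte-like nuclei per mouse. For Egr1 the shares were 9.10%, 9.06% and 2.61%, for Bdnf 8.70%, 1.30% and 1.44%, for Arc 5.37%, 2.80% and 2.96%, and for Fos 1.25%, 1.61% and 0.615%. Bdnf and Arc in inhibitory nuclei were at or under the share in oligodendrocyte-like nuclei, and no expression is read from these pooled shares, although Arc was higher in Drd1 nuclei, as given above. Before thinning the excitatory shares were 50.7% for Nr4a1, 23.9% for Egr1 and 4.28% for Fos. Most nuclei with a transcript had a single one: 80.5% of those with Fos and 54.5% of those with Nr4a1. The highest count in a nucleus was 6 for Fos, 12 for Npas4, 37 for Nr4a3 and 43 for Bdnf.

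The other 9 genes were found more often in excitatory nuclei with a Fos transcript than in those without. After thinning, 605 excitatory neuron-like nuclei had a Fos UMI and 37447 had none. Fosb, the close relative of Fos, was found in 6.61% of the first and 0.708% of the second, a ratio of 9.34, with the same direction in 10 of 11 mice. For Npas4, a factor switched on selectively by calcium entry, the shares were 19.8% and 4.11%. For Junb they were 17.5% and 3.78%, for Arc 17.9% and 5.58%, for Egr3 12.4% and 3.97%, and for Egr1 27.3% and 9.08%. The ratios were lower for Nr4a3 (19.0% and 6.79%), Bdnf (16.4% and 7.68%) and Nr4a1 (35.9% and 20.04%). Every gene had the higher share beside Fos in at least 9 of 11 mice. Nuclei of 1 mouse are not replicates, and subtypes rich in Fos enter both sides unequally, so these shares are a description.

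**Figure D2:**
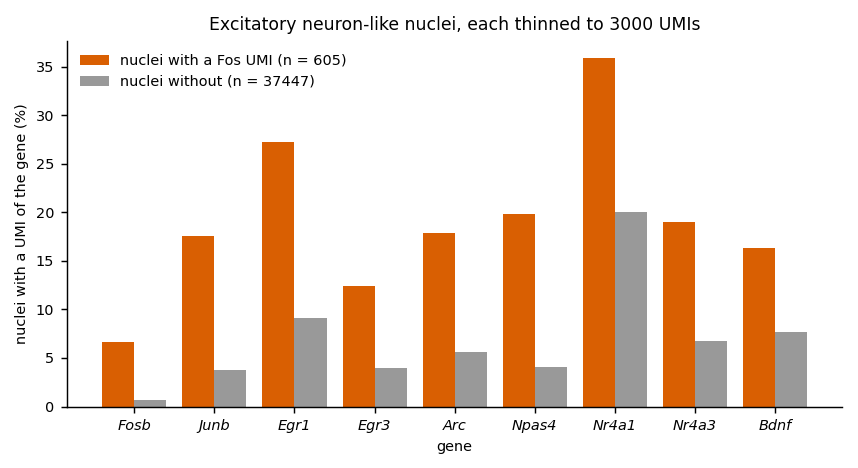
Bars give the percent of excitatory neuron-like nuclei with at least 1 UMI of a gene, after thinning to 3000 UMIs, in 605 nuclei with a Fos UMI (orange) and 37447 without (grey), pooled over 11 mice. The orange bar is the taller for all 9 genes, from 6.61% against 0.708% for Fosb to 35.9% against 20.04% for Nr4a1.

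Nuclei with UMIs of 3 or more of the 10 genes were a median of 4.19% of excitatory (2.52% to 8.60% over mice), 2.80% of inhibitory (1.30% to 5.29%) and 0% of oligodendrocyte-like nuclei (2 of 3892 in all). In excitatory nuclei the 4 non-transgenic mice had 5.09%, 6.31%, 6.44% and 8.60%. The 3 P301S mice had 4.00%, 4.19% and 7.05%, the knockout P301S mice 2.83% and 3.25%, and the active IKKb P301S mice 3.44% and 2.52%. At this thinning the 4 knockout and active IKKb mice were below the 7 others, and the order changed with the depth. After thinning to 1500 UMIs active IKKb P301S replicate 1 (1.12%) was above P301S replicate 1 (1.04%), and without thinning the 4 mice (19.6% and 28.5%, 22.9% and 20.5%) were above P301S replicates 1 and 2 (18.7% and 16.1%). These 4 carry Cre in addition to their allele, and the groups share the P301S mice as their control.

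Per mouse, the levels in excitatory neuron-like nuclei give the base of the comparisons between genotypes. In a sum over nuclei, fewer nuclei with a transcript and fewer transcripts per nucleus cannot be told apart. Fos was at 4.79, 10.6, 6.503 and 8.9996 CPM in the 4 non-transgenic mice, at 3.47, 5.29 and 7.06 in the 3 P301S mice, at 1.52 and 3.70 in the knockout P301S mice and at 3.41 and 2.36 in the active IKKb P301S mice. The active IKKb mice lay below all P301S mice, and the knockout mice overlapped them. Groups this small often do not overlap: of 18059 genes tested in excitatory nuclei, 29.3% had no overlap in either direction between knockout and P301S mice, 24% between active IKKb and P301S mice and 3.9% between P301S and non-transgenic mice. Of the 10 genes, 2, 5 and 0 had none. Junb, a partner of Fos in AP-1, was at 10.8, 22.3, 20.003 and 30.4 CPM in non-transgenic, 8.41, 13.6 and 16.8 in P301S, 4.51 and 10.9 in knockout and 9.66 and 7.69 in active IKKb mice. Its groups overlapped throughout the contrasts. Fosb, whose stable splice form builds up under repeated stimulation, was at 4.42, 3.12, 3.17 and 2.95 CPM in non-transgenic, 3.80, 3.20 and 3.27 in P301S, 1.80 and 1.78 in knockout and 2.71 and 2.74 in active IKKb mice. Non-transgenic and P301S mice overlapped in Fosb, and both other groups lay below all P301S mice.

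Egr1, a factor linked to synaptic plasticity, was at 30.2, 53.0, 46.6 and 48.4 CPM in non-transgenic, 25.7, 31.98 and 41.02 in P301S, 11.1 and 33.9 in knockout and 23.2 and 20.4 in active IKKb mice. Egr3 was at 14.6, 10.3, 19.4 and 19.5 CPM, then 18.5, 10.3 and 17.2, then 11.6 and 10.9, and then 13.2 and 14.2, in the same order of groups. Npas4, which sets the inhibitory input of active neurons, was at 15.996, 30.5, 17.8 and 20.7 CPM in non-transgenic, 14.95, 17.8 and 15.99 in P301S, 5.91 and 13.7 in knockout and 10.96 and 11.1 in active IKKb mice. For Npas4 both the knockout and the active IKKb mice lay below all P301S mice, and for Egr1 the active IKKb mice did.

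Arc was at 13.97, 24.6, 30.9 and 31.5 CPM in non-transgenic, 18.1, 14.1 and 26.2 in P301S, 6.42 and 25.2 in knockout and 16.99 and 12.8 in active IKKb mice, so that 1 knockout mouse lay below all P301S mice and the other within their range. Nr4a1 ran from 60.3 to 115 CPM over the 11 mice, and its 2 active IKKb mice (80.1 and 86.9) lay above the P301S mice (60.3 to 78.7). Nr4a3 ran from 14.7 to 45.9 CPM, both ends being a knockout (14.7) and a P301S mouse (45.9). Bdnf was at 34.5 to 41.6 CPM in non-transgenic, 30.1 to 40.4 in P301S, 21.6 and 36.7 in knockout and 25.5 and 35.7 in active IKKb mice.

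The knockout P301S mice held most of the lowest values in excitatory nuclei. Knockout P301S replicate 1, the youngest of the 11, was the lowest in 5 of the 10 genes in excitatory neuron-like nuclei, in 6 in inhibitory and in 4 in oligodendrocyte-like nuclei. Knockout P301S replicate 2 was the lowest in 3 more in excitatory nuclei (Fosb, Nr4a3 and Bdnf) and in 1 in inhibitory nuclei. Nr4a3 of replicate 1, by contrast, was the second of 11 in excitatory nuclei at 45.3 CPM. Heat shock and handling genes, scored as the mean z over 6 genes and 11 mice, were at 0.03 in replicate 1, against -1.16 for the 10 genes. The scores were also apart in non-transgenic replicate 4, at -0.50 against 1.12. The part of handling in the levels was not tested. The values of the knockout comparisons are given below without each of these mice.

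**Figure D3:**
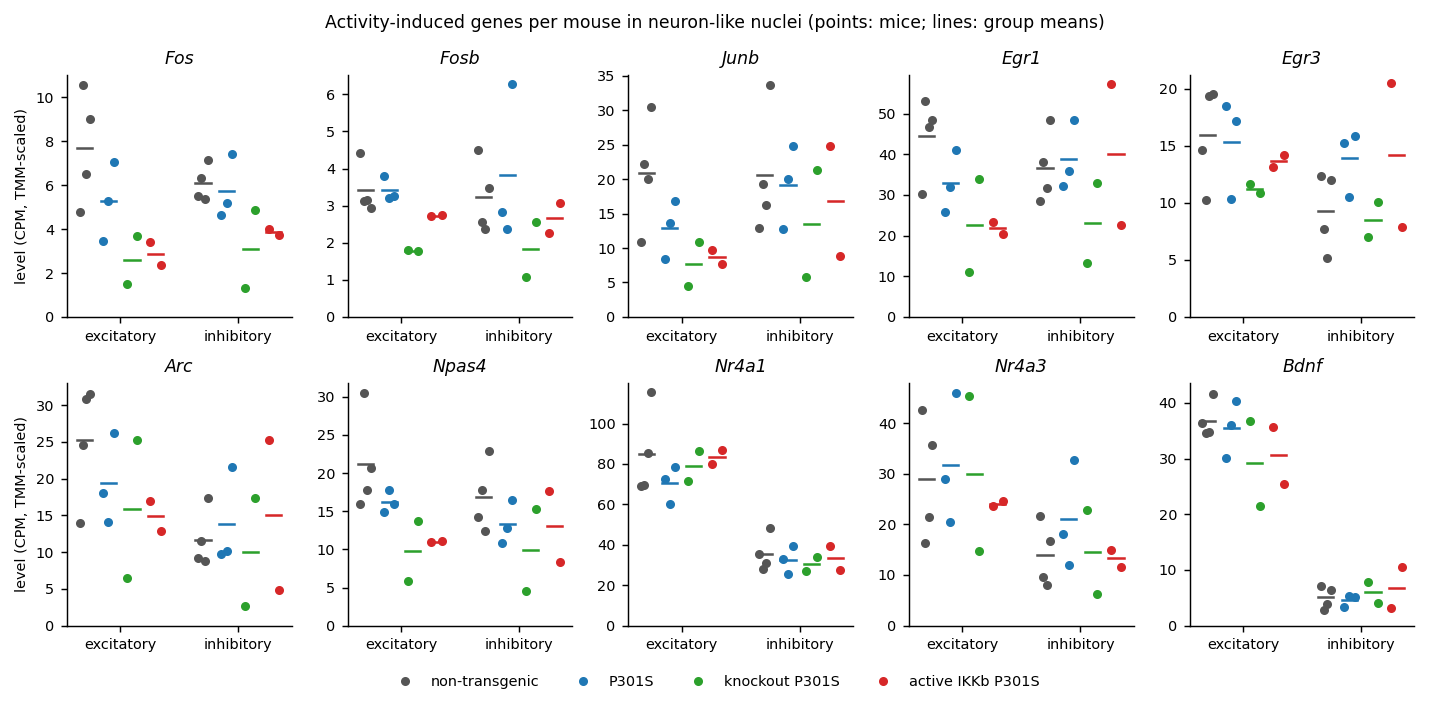
Each point is a mouse and each line a group mean of the level (CPM with TMM scaling, linear axis from 0) in the excitatory (left of each panel) and inhibitory neuron-like nuclei (right), colored by genotype. In excitatory nuclei the knockout and active IKKb points for Fosb (1.78 to 2.74 CPM) lie below those of the P301S mice (3.20 to 3.80), and Bdnf and Nr4a1 are higher in the excitatory than in the inhibitory class in every mouse.

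The first comparison asked whether tau pathology changed these genes in neurons. In excitatory neuron-like nuclei of P301S mice, 8 of the 10 genes had lower means than in non-transgenic mice (7 to 10 with any 1 mouse left out), and none passed the test. The lowest values were Junb at -0.69 ± 0.35 (log2 fold change ± SE, 12.95 ± 4.26 CPM (SD, n = 3) against 20.9 ± 8.05 (SD, n = 4)), Fos at -0.56 ± 0.33, Egr1 at -0.44 ± 0.31 and Npas4 at -0.39 ± 0.26. The adjusted p was 0.99966 for each of the 10 genes (edgeR quasi-likelihood test, Benjamini-Hochberg over 18059 genes), and all 10 had overlapping groups, where 3.9% of all genes did not overlap. Calls needed an adjusted p below 0.05 and a fold change beyond 0.1 in size on the log2 scale, and 0.0332% of all genes tested met both. The count of 0 holds for DESeq2 too, and 0 of the 10 had an unadjusted p under 0.05. The median log2 fold change of the 10 was -0.32, beside -0.003 over all genes, and lay between -0.43 and -0.17 with any 1 mouse left out, the last without non-transgenic replicate 4 (-0.18 without P301S replicate 2). In inhibitory neuron-like nuclei 5 of 10 were lower and 5 higher (2 lower without P301S replicate 1 and 8 without P301S replicate 3), with a median of -0.004 beside 0.003 over all genes (-0.26 without P301S replicate 3 and 0.24 without non-transgenic replicate 4), 0 were called by edgeR or DESeq2 and 0 had an unadjusted p under 0.05, where 0.018% of 16696 genes were called. All 10 had overlapping groups there too, where 5.59% of all genes did not overlap. For Junb in excitatory nuclei the fold change was -0.45 without P301S replicate 1 and -0.92 without P301S replicate 3. It was -0.60 within the floxed line and -0.58 within the active IKKb line, where P301S replicate 3 was the only P301S mouse.

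The difference between the 2 classes was tested within mice. The P301S fold change was lower in excitatory than in inhibitory nuclei by 0.60 for Junb (limma, adjusted p = 0.999) and by 0.52 for Egr1 (limma, adjusted p = 0.999) on the log2 scale, so neither passed over 16417 genes. Of the 10 genes, 3 had an unadjusted p under 0.05 in this test, beside 3.91% of all genes, and 0% of all genes passed. The P301S fold change did not pass a test of difference between the breeding lines in excitatory (lowest adjusted p = 0.928, edgeR) or inhibitory nuclei (lowest adjusted p = 0.99987, edgeR).

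The second comparison asked what the loss of microglial Ikbkb did in P301S mice. Both knockout mice came from the floxed line and P301S replicate 3 from the other, so genotype and breeding line are partly confounded. In excitatory neuron-like nuclei 9 of the 10 genes had lower means in knockout P301S mice, and none was called, as 0% of 18059 genes were. Fosb was at 1.79 ± 0.015 CPM (SD, n = 2) against 3.42 ± 0.33 (SD, n = 3), a difference of -0.94 ± 0.20 (SE) on the log2 scale. Its edgeR p was 0.000467 unadjusted and 0.481 adjusted. The 2 mice had nearly the same level, from 77 and 74 UMIs. After thinning to equal depth they were farther apart, with a Fosb UMI in 0.723% and 0.439% of nuclei (23 and 12 nuclei). Both shares lay below those of the P301S mice, at 0.880%, 0.860% and 0.997%, and the difference in shares was not tested. With any 1 mouse left out the log2 fold change stayed between -0.99 and -0.86. DESeq2 gave -0.95 with an adjusted p of 0.0493 and so called Fosb, 1 of the 16 genes it called there. Over all other settings, each with edgeR, the adjusted p of Fosb ran from 0.163 to 0.994.

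Fos and Npas4 had an unadjusted p under 0.05 as well. Fos was at 2.61 ± 1.54 CPM (SD, n = 2) against 5.27 ± 1.80 (SD, n = 3), or -1.01 ± 0.42 on the log2 scale (SE, edgeR adjusted p = 0.542). Without knockout P301S replicate 1 it was -0.50, and without replicate 2 it was -1.78. Npas4 was at 9.79 ± 5.50 CPM (SD, n = 2) against 16.2 ± 1.44 (SD, n = 3), at -0.73 ± 0.32 (SE, edgeR adjusted p = 0.549), and moved to -0.25 without replicate 1 and to -1.46 without replicate 2. Both thus rested on replicate 1 for much of their size. The other fold changes were -0.74 for Junb, -0.55 for Egr1, -0.45 for Egr3, -0.30 for Arc, -0.28 for Bdnf, -0.08 for Nr4a3 and 0.16 for Nr4a1, the only positive value. Several of these directions came from 1 knockout mouse. Without replicate 1 Arc was at 0.38 and Egr1 at 0.04, so both changed sign, Junb was at -0.24, Nr4a3 at -1.11 and Bdnf at -0.72, and 7 of the 10 genes were lower. Without replicate 2 Junb was at -1.51, Arc at -1.59 and Egr1 at -1.56, while Nr4a3 (0.52) and Bdnf (0.05) changed sign, and 7 of the 10 were again lower. Fosb, Fos, Npas4, Junb and Egr3 were lower without either mouse. The median was -0.50 (-0.37 without knockout replicate 1 and -1.19 without knockout replicate 2) beside 0.005 over all genes, of which 1598 (8.85%) had an unadjusted p under 0.05, beside 3 of the 10. Without P301S replicate 3 the median was -0.37 and 8 of the 10 were lower. The knockout mice also had the most UMIs per excitatory nucleus, the P301S mice had the fewest, and the knockout mice include the youngest mouse. The part of depth in these values was not tested, and age was entered only as a covariate. With it Fos was at -0.45. Over all 22 alternatives, age among them, Fosb stayed between -1.11 and -0.85 and Npas4 between -1.46 and -0.25.

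In inhibitory neuron-like nuclei 9 of 10 genes had lower means in knockout P301S mice (6 of 10 without replicate 1, where Junb, Arc, Npas4 and Nr4a1 were above 0, and 8 without replicate 2) and 0 were called by edgeR or DESeq2, as 0% of 16696 genes were by edgeR. Without P301S replicate 3, of the other breeding line, 7 of the 10 were lower and the median was -0.27 in place of -0.52. Fosb was at -1.08 ± 0.49 and Fos at -0.90 ± 0.40 (log2 fold change ± SE, edgeR adjusted p = 0.734 for both), each with an unadjusted p under 0.05, as 6.72% of all genes had. Fos in the 2 mice was at 1.34 and 4.88 CPM, and its fold change was -0.24 without replicate 1 and -2.10 without replicate 2. In the cortical interneuron-like nuclei alone it was -1.13. Fosb was -0.52 without P301S replicate 3, which had the highest inhibitory level at 6.28 CPM, -0.58 without knockout P301S replicate 1 and -1.81 without knockout P301S replicate 2. Egr3 was the gene whose knockout mice (7.002 and 10.05 CPM) lay below all P301S mice (10.5 to 15.9), 1 of the 10 without overlap beside 30.8% of all genes. The excitatory and inhibitory fold changes of the knockout comparison did not pass a test of their difference for any of the 10 genes (lowest adjusted p = 0.99993, limma), with 1 unadjusted p under 0.05 beside 1.62% of all genes.

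The third comparison set active IKKb P301S mice against the same 3 P301S mice, of which only replicate 3 came from the active IKKb line. Genotype and breeding line are thus partly confounded here too. In excitatory neuron-like nuclei 9 of 10 genes had lower means and none was called by edgeR or DESeq2, beside 0.00554% of all genes by edgeR. Fos was at 2.89 ± 0.75 CPM (SD, n = 2), a difference of -0.86 ± 0.42 (SE, edgeR adjusted p = 0.825), and Npas4 at 11.02 ± 0.084 CPM (SD, n = 2), a difference of -0.56 ± 0.31 (both on the log2 scale, SE, edgeR adjusted p = 0.825). Egr1 was at -0.59, Junb at -0.57, Nr4a3 at -0.39, Arc at -0.38, Fosb at -0.33, Bdnf at -0.21 and Egr3 at -0.17, and Nr4a1 was the only positive value, at 0.24. The groups did not overlap for Fos, Fosb, Egr1 and Npas4, which were lower, and Nr4a1, which was higher, 5 of the 10 beside 24% of all genes, and 0 of the 10 had an unadjusted p under 0.05. The median was -0.39 beside 0.004 over all genes, and -0.24 without P301S replicate 3.

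In inhibitory neuron-like nuclei the active IKKb mice gave 5 lower and 5 higher means (9 lower without active IKKb P301S replicate 1, 4 lower without replicate 2, and 2 to 9 lower with a P301S mouse left out), 0 called by edgeR or DESeq2 (0% of all genes by edgeR) and 0 with an unadjusted p under 0.05. The 2 mice were far apart: Arc was at 25.2 and 4.83 CPM, Egr1 at 57.3 and 22.6, Junb at 24.8 and 8.80 and Egr3 at 20.5 and 7.90. The higher mouse each time was replicate 1, whose inhibitory class was 59.6% striatal projection neuron-like, among which Drd1 nuclei had the highest Junb, Egr1 and Egr3. In replicate 2, the lower mouse, 43.4% of the inhibitory class was 1 unnamed cluster led by Ebf3, Ebf2 and Rmst (1086 of 2504 nuclei), which made up 2.48% in replicate 1 and 2.95% to 18.1% in the other 9 mice. Within Drd1 nuclei alone replicates 1 and 2 were still apart, at 62.4 and 19.6 CPM for Arc, 119 and 44.7 for Egr1, 55.7 and 17.97 for Junb and 42.3 and 32.3 for Egr3. In cortical interneuron-like nuclei alone they were at 3.74 and 1.46 CPM for Arc, 11.9 and 9.69 for Egr1, 4.58 and 3.11 for Junb and 3.12 and 2.19 for Egr3. Replicate 1 was thus the higher in both. Taken as a ratio of the 2 mice, the gap was smaller in the interneurons than in the whole class for Arc, Egr1, Junb and Egr3 alike. Within Drd1 nuclei it was smaller than in the whole class for Arc and Egr3 and slightly larger for Egr1 and Junb. The part of the makeup of the class in these gaps was not tested. Fos, at 3.99 and 3.74 CPM, lay below all P301S mice (4.63 to 7.43), the 1 gene of the 10 without overlap, beside 16.9% of all genes.

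**Figure D4:**
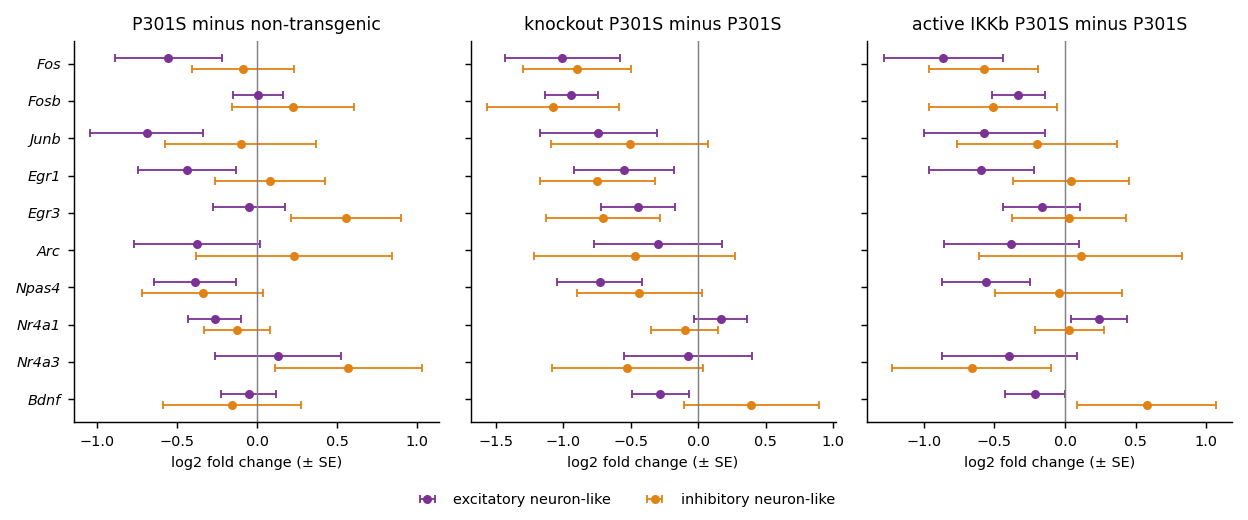
Points are log2 fold changes and bars their standard errors (edgeR) for the 10 genes in the 3 comparisons, in excitatory (purple) and inhibitory (orange) neuron-like nuclei, with a line at 0. In the knockout panel inhibitory Fosb (-1.08), excitatory Fos (-1.01) and excitatory Fosb (-0.94) lie farthest left, and no gene was called in any panel by edgeR.

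The same tests were run in each of the 13 neuronal subtypes, where 100 of 130 possible tests of the 10 genes per comparison passed the filter on low counts. Of the 100, 0 were called by edgeR in the P301S comparison (0.0129% of all tests were), with 11 at an unadjusted p under 0.05 beside 3.68% of all tests. In the knockout comparison 0 were called (0.000716% of all tests) with 17 at an unadjusted p under 0.05 beside 6.49% of all tests, and in the active IKKb comparison 0 (0.0107%) with 13 beside 6.31%. DESeq2 was not run on subtypes. Fold changes were below 0 in 71, 79 and 73 of the 100 tests. The share below 0 over all genes was not taken in the subtypes, so these counts have no baseline, and the comparisons share the P301S mice. In the knockout comparison Fos was below 0 in 9 of 9 subtypes (-1.41 to -0.51 on the log2 scale), Junb in 10 of 10 (-1.34 to -0.22), Npas4 in 10 of 10 (-0.86 to -0.11), Egr1 in 13 of 13 (-2.14 to -0.41) and Egr3 in 8 of 8 (-0.75 to -0.17). Nr4a1 was above 0 in 10 of 13, and Arc was below 0 in 8 of 9, Fosb in 6 of 7, Bdnf in 5 of 8 and Nr4a3 in 7 of 13. These counts leaned on replicate 1 of the knockout mice: without it Fos was below 0 in 6 of 9 subtypes, Junb in 9 of 12, Npas4 in 6 of 10 and Egr1 in 9 of 13, while Egr3 was below 0 in 8 of 8. Without replicate 2 these 5 genes were below 0 in 9 of 9, 12 of 12, 10 of 10, 13 of 13 and 7 of 8, and 1 test was called by edgeR, Egr1 in Vip interneuron-like nuclei (-3.38 on the log2 scale, edgeR adjusted p = 0.00701), where the lone mouse is assumed to vary like the other groups. That fit called 0.00272% of all tests, 2 genes in Vip nuclei among them, and the fit without replicate 1 called 0.00409%. For 3 other genes the sign turned with the mouse left out: Arc was below 0 in 2 of 11 subtypes without replicate 1 and in 9 of 11 without replicate 2, Nr4a3 in 13 of 13 and 1 of 13, and Bdnf in 10 of 12 and 2 of 12. Both fits were added after the data were seen. Subtypes of a mouse are parts of 1 library and no independent repeats.

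Fosb, which had the lowest unadjusted p of the 10 in the excitatory knockout comparison, ran from -2.79 to 0.61 (log2) over the 7 subtypes tested. It was below 0 in 6 of them. In layer 6 corticothalamic nuclei it was at 0.933 ± 0.27 CPM (SD, n = 2) in knockout P301S mice against 3.84 ± 1.26 (SD, n = 3), or -1.99 ± 0.51 on the log2 scale (SE, edgeR adjusted p = 0.583). In upper-layer nuclei it was at 3.05 against 3.39 CPM, or -0.20 ± 0.37 on the log2 scale (SE, edgeR adjusted p = 0.924). The difference between these subtypes was not tested. Bdnf in upper-layer nuclei, where it is abundant, had means of 62.5 ± 4.93 CPM in the 4 non-transgenic, 50.3 ± 6.70 in the 3 P301S, 44.4 ± 14.4 in the 2 knockout and 38.8 ± 5.61 in the 2 active IKKb mice (SD), and it was not called in any comparison.

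Other genes of the pathway were counted from hand-written lists. Of 30 other rapid primary response genes, such as Jun, Egr2 and Nr4a2, 28 were tested in excitatory neuron-like nuclei. In P301S mice 21 of the 28 were lower and 7 higher, in knockout P301S mice 23 and 5, and in active IKKb mice 22 and 6, with medians of -0.11, -0.33 and -0.14 on the log2 scale beside medians of at most 0.005 in size over all genes. By edgeR 0 were called in each, and 2, 7 and 4 of the 28 had an unadjusted p under 0.05, beside 2.59%, 8.85% and 5.54% of all genes. The 3 comparisons share the P301S mice. In inhibitory nuclei 26 were tested, and 12, 21 and 17 were lower, with medians of 0.035, -0.31 and -0.07.

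The later and the upstream genes were counted in the same way, and no test was made of a difference between lists. Of 18 delayed response and effector genes, such as Homer1, Nptx2 and Vgf, 15 were lower in P301S mice (median -0.15), 9 in knockout P301S mice (median 0.003) and 10 in active IKKb mice (median -0.01) in excitatory nuclei, and in inhibitory nuclei 12, 10 and 8 were lower. Of 19 upstream factors, coactivators and kinases, such as Creb1, Mef2c and Crtc1, 11, 10 and 11 were lower in excitatory and 8, 10 and 7 in inhibitory nuclei, with medians between -0.03 and 0.05. Of the heat shock and handling genes, 6 were tested in excitatory nuclei and 3 were lower in each comparison, and 5 were tested in inhibitory nuclei with 1, 3 and 2 lower. Of these 3 lists 0 genes were called by edgeR, and at most 2 genes of a list had an unadjusted p under 0.05 in a comparison and class.

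Across mice of all genotypes, those high in Fos were high in Junb, Egr1 and Npas4. The genotype groups differ in their mean of Fos and enter this relation. Over the 11 mice, in excitatory neuron-like nuclei, log2 CPM of Fos was correlated with that of Junb (r = 0.963, rho = 0.964), Egr1 (r = 0.961, rho = 0.964), Npas4 (r = 0.938, rho = 0.927) and Arc (r = 0.817, rho = 0.745). By a two-sided permutation test with 100000 resamples, adjusted over 9 relations, p was 3e-05 for the r of Junb, Egr1 and Npas4 each, from an unadjusted 1e-05, the smallest that these permutations can give, and 0.00466 for Arc. The same test was run for each of the 18058 other genes, of which 4.28% had an unadjusted p under 0.05 in either direction and 0.183% had an r at or above that of Arc. Adjusted over all of these genes the permutation p was 0.0361 for Junb, Egr1 and Npas4 each, where 0.0277% of all genes passed, and 0.719 for Arc, which did not pass. Adjusted over the 9 relations, the permutation p of rho was 4.5e-05 for Junb and Egr1, 0.00048 for Npas4 and 0.0249 for Arc. These 4 genes differ in role, since Junb, Egr1 and Npas4 are transcription factors and Arc acts at synapses.

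Without the 2 mice farthest from the median of Fos, non-transgenic replicate 2 and knockout P301S replicate 1, the relation held for Junb, Egr1 and Npas4. Over the 9 mice left, r was 0.946 for Junb (permutation p = 0.00054, adjusted over 9 relations), 0.933 for Egr1 (adjusted permutation p = 0.00207) and 0.887 for Npas4 (adjusted permutation p = 0.00417). Arc no longer passed, at r = 0.691 (permutation p = 0.0435, adjusted 0.0783). Bdnf, which did not pass over the 11 mice, passed over the 9, at r = 0.741 (permutation p = 0.0205, adjusted 0.0461). Within the 6 mice of the floxed line r was 0.987 for Junb (exact permutation p = 0.00278, adjusted 0.0125), 0.955 for Egr1 (exact permutation p = 0.0139, adjusted 0.0417), 0.986 for Npas4 (exact permutation p = 0.00278, adjusted 0.0125), 0.746 for Arc (exact permutation p = 0.121, adjusted 0.272) and 0.058 for Bdnf (exact permutation p = 0.889, adjusted 0.889). The active IKKb line had 5 mice, and no correlation was made over fewer than 6. Without knockout P301S replicate 1 alone, Arc was at r = 0.675 with an adjusted permutation p of 0.0658, and the other 3 genes kept r over 0.9. Without non-transgenic replicate 2 alone, Arc was at r = 0.838 (adjusted permutation p = 0.00625), so the call for Arc rests on the knockout mouse.

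The remaining 5 genes did not pass this test over the 11 mice. The values were r = 0.499 for Fosb (rho = 0.391, adjusted permutation p = 0.211 and 0.426), r = 0.408 for Bdnf (rho = 0.30, adjusted permutation p = 0.32 and 0.56), r = 0.218 for Egr3 (rho = 0.136, adjusted permutation p = 0.601 and 0.782), r = 0.179 for Nr4a1 (rho = -0.055, adjusted permutation p = 0.601 and 0.882) and r = -0.197 for Nr4a3 (rho = -0.164, adjusted permutation p = 0.601 and 0.782). In upper-layer nuclei alone the r with Fos was 0.941 for Junb, 0.931 for Egr1, 0.935 for Npas4 and 0.917 for Arc. In layer 6 corticothalamic nuclei alone it was 0.929, 0.952, 0.927 and 0.734, and in layer 4 and 5 nuclei alone 0.957, 0.918, 0.852 and 0.762. The relation was thus also seen within these single subtypes. Across the 11 mice 4 of the 9 genes passed when adjusted over the 9 and 3 when adjusted over all genes, while within nuclei all 9 were found more often beside Fos.

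**Figure D5:**
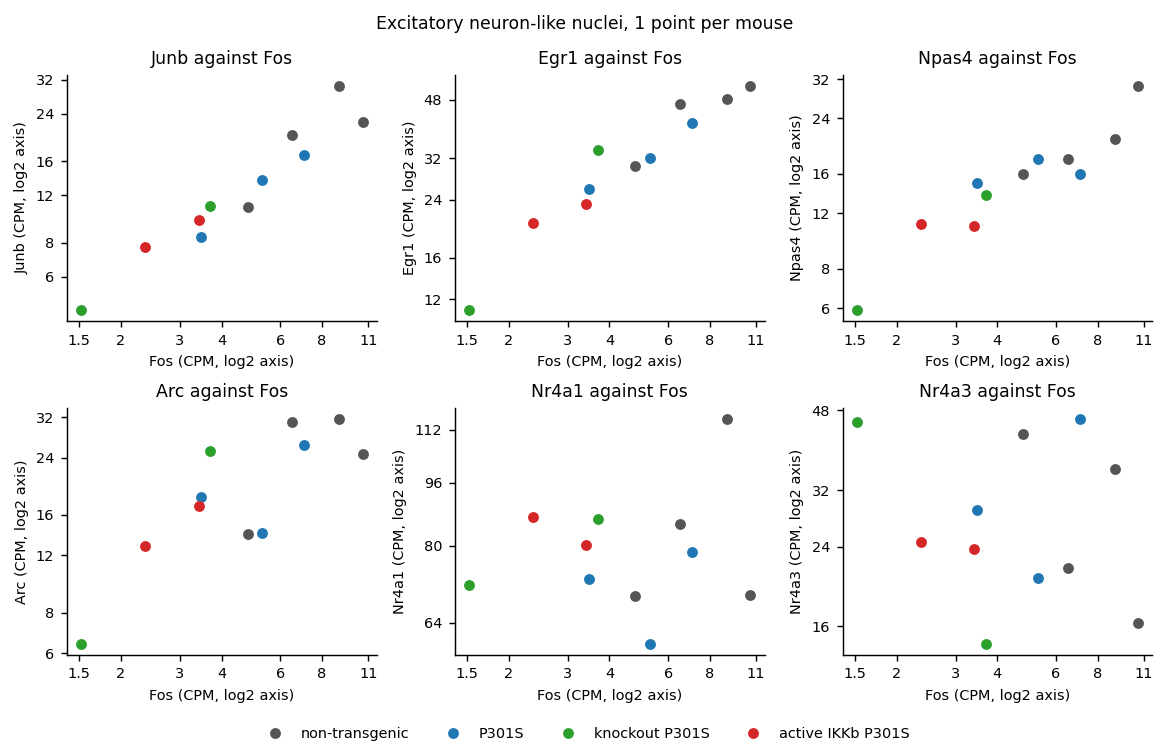
Each point is a mouse, colored by genotype, with the level of Fos on the x axis and of another gene on the y axis in excitatory neuron-like nuclei (CPM, both axes log2). Junb, Egr1 and Npas4 rise with Fos along a line (r of 0.938 to 0.963), Arc less tightly (r = 0.817), and Nr4a1 (r = 0.179) and Nr4a3 (r = -0.197) show no such line.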

How the data were processed

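Nuclei of frozen cortex were profiled with 10x 3′ libraries. Per the labels and methods, the authors used Cell Ranger 3.1.0 (Seurat 3.0 is also in the submitters' processing notes) with a mm10 reference that includes unspliced RNA, and deposited raw UMI counts per gene and barcode. All else was computed here. Barcodes with fewer than 300 or more than 8000 genes, or over 5% of UMIs from mitochondrial genes, were dropped, and 112539 remained. A simulation-based caller at a rate of 0.8% per 1000 barcodes marked 9474 doublets (8.42%), leaving 103065 nuclei, which were clustered (scikit-learn 1.9.0, leidenalg 0.10.2). A cluster was named "like" the type with the most markers raised, if at least 3 were. Where types had equally many raised, the one with more markers among the 10 leading genes was taken. Clusters stayed unnamed if types tied in both counts or another type had more among those 10. For subtypes and shallow clusters a marker had to be among those 10. Unnamed neuronal clusters (21457 nuclei) stayed in the class sums.

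Counts were summed per mouse over a type of nucleus. Genes kept by filterByExpr (18059 in excitatory, 16696 in inhibitory sums, all 10 members in both) were tested with edgeR 4.0.16 (quasi-likelihood, TMM, 1 term per genotype, 11 mice), adjusted by Benjamini-Hochberg over all genes. DESeq2 1.42.0 was an alternative, and differences between classes used limma 3.58.1 on log2 CPM (prior count 2). Simulated data with known changes in 200 genes gave a recovery of 61% at 2-fold and 15% at 1.5-fold in the excitatory knockout comparison. In the inhibitory knockout comparison it was 44% and 2%. The changed genes were drawn at random from all genes tested, so these shares are for such genes and not for the 10 members. The biological coefficient of variation was 0.133 in excitatory and 0.161 in inhibitory sums. The members and lists were chosen with earlier results of these data known. Named genes were the 10 members, any list gene called (none was), and the 5 genes most like them over mice. Each mouse gave 1 library.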

Additional observations from a re-analysis of the deposited data

Results flagged for a closer look

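In non-transgenic replicate 1, Fosb of the excitatory neuron-like sum reached 4.42 CPM, apart from the other 3 non-transgenic mice, whose median was 3.12 CPM. The gap to the nearest mouse was 0.854 of the range of the group, over the limit of Dixon's test for 4 samples. In all, 20 sets of 4 mice were tested, and chance marks about 1 in 20.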

How the results depend on the processing

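Groups of 2 and 3 mice limit every comparison, and the count of the 10 genes called was 0 in all 6 comparisons by edgeR under each alternative run (DESeq2 size factors, no filter beyond 1 count, breeding line or age as a covariate, within a line, only the groups compared, doublets kept, a mitochondrial limit of 1%, and each mouse left out in turn). DESeq2 called 1 of the 10 in the excitatory knockout comparison, Fosb. The cause was not tested. Over all genes DESeq2 called 16 against 0 by edgeR there, 9 against 1 in the excitatory active IKKb, 9 against 3 in the inhibitory P301S, 7 against 0 in the inhibitory active IKKb and 1 against 0 in the inhibitory knockout comparison. Leaving out active IKKb P301S replicate 1 or replicate 2 gave 135 and 116 genes in the inhibitory active IKKb comparison by edgeR, where the lone mouse is assumed to vary like the other groups. Within the floxed line the excitatory P301S comparison had 3 genes called against 6. P301S replicate 3 was the only P301S mouse of the active IKKb line, so no counts over all genes are given within that line. Of 1337 fold changes recomputed for the 10 genes, 103 changed sign, and 0 of these were called. With age as a covariate the excitatory knockout fold change of Fos was -0.45. That of Fosb lay between -1.11 and -0.85 over all alternatives, age among them. With the title number as a replicate block the excitatory knockout values were -0.91 for Fosb (edgeR adjusted p = 0.522), -1.15 for Fos and -0.89 for Npas4, and no call changed, the count staying at 0. Same-numbered mice had deviations correlated at -0.25 to 0.275 over both lines, with 13.6% of these pairs above 0.1, and at -0.051 to 0.275 within a line. In a group of 2 mice the deviations mirror each other, so this check cannot settle whether the numbers pair the mice. With each mouse left out, 3 or 4 genes stayed correlated with Fos, 3 without knockout P301S replicate 1. Without thinning, the median share of excitatory nuclei with a Fos UMI was 4.28% in place of 1.25%. Sums over the named cortical subtypes, added after the data were seen, gave 0 called too.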

Other observations

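Outside the 10 genes and the lists, the 5 genes whose level over the 11 mice was most like the mean z-score of the 10 in excitatory neuron-like nuclei, of 17978 compared, were Tti2 (r = 0.908), Nxt1 (r = 0.905), Nifk (r = 0.891), Cnbp (r = 0.891) and Ythdf2 (r = 0.888). The 5 were picked as the highest of all, so the values are a description. Their range over mice was narrow, 20.4 to 24.2 CPM for Ythdf2 and 23.0 to 29.5 for Cnbp.

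Fosb had a median of 0 CPM in microglia-like nuclei, and Junb was at 5.03 CPM in astrocyte-like nuclei.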
